A study of Mus musculus with 2 samples.

Results

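Mir143 and Mir145a are neighbouring microRNA genes on mouse chromosome 18, here described in small RNA libraries of embryonic midbrain. They were found by symbol in the deposited count tables, and both members were present among the 1973 microRNA genes listed. MicroRNA sequencing was done on midbrain of B6NCrl mouse embryos at embryonic day 12.5, with both sexes pooled and no treatment or genetic change. The series holds 2 libraries, labelled biological replicates of 1 tissue. Replicate 2 was made from 88 embryos and replicate 1 from 120. Because there is only 1 group, the comparisons are between microRNAs and between these libraries.

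MicroRNAs are short RNAs cut from hairpin transcripts, and they pair with messenger RNAs through a seed near their 5′ end and lower the output of those messages. Mir143 and Mir145a are known from vascular smooth muscle cells and pericytes, the mural cells that wrap blood vessels, where they are usually regarded as products of 1 shared primary transcript. miR-145 is known in mouse smooth muscle for repressing Klf4 and for favouring the contractile state, and miR-143 for repressing Elk1. Neither is taken to be a microRNA of neurons or neural progenitors, so in a whole-midbrain sample their reads are usually attributed to the vessels and surrounding mesenchyme. The tables hold microRNA genes only, so the mural cell label could not be checked against messenger RNA markers of those cells. In such bulk tissue, fewer cells of a type and less RNA per cell cannot be told apart.

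On the mm10 assembly, Mir143 (ENSMUSG00000065445) lies on the minus strand of chromosome 18 from 61649196 to 61649258, a hairpin of 63 bases. Mir145a (ENSMUSG00000065592) lies downstream of it on the same strand from 61647825 to 61647894, a hairpin of 70 bases. The hairpins are 1301 bases apart. In the RefSeq table of GRCm38.p6 both lie inside the span of Carmn, a long non-coding RNA gene from 61645878 to 61665538 that is known from smooth muscle and heart. In GENCODE M21 Carmn ends 366 bases upstream of Mir143, and 0 other genes overlap either hairpin. Bvht, a long non-coding RNA gene named for its role in mouse heart development, lies on the opposite strand, 352 bases beyond Mir145a.

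**Figure D1:**
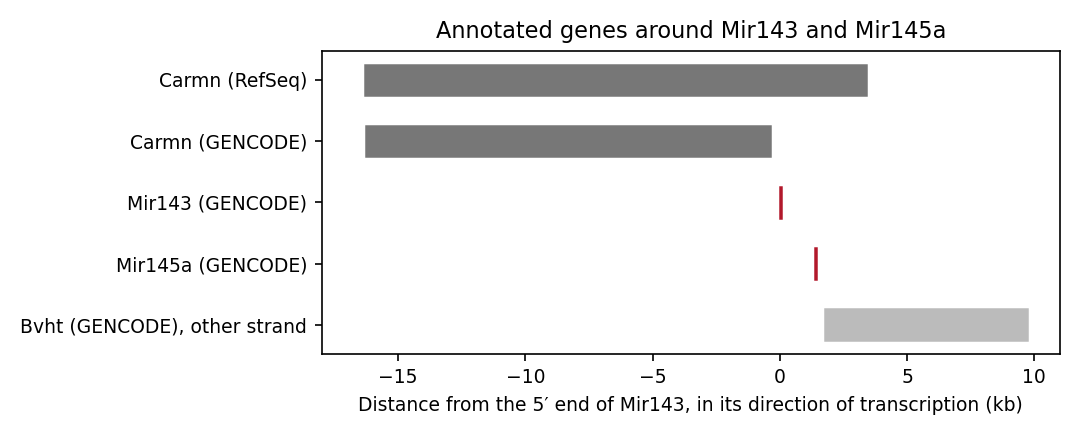
Genes annotated around the cluster, drawn to scale as distance in kilobases from the 5′ end of Mir143 in its direction of transcription. Red bars are the hairpins, 1301 bases apart, dark grey bars are Carmn in each annotation, and the light grey bar is Bvht on the other strand.

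The cluster was set beside microRNAs of the tissue around and inside the vessels, endothelial Mir126a and mesenchymal Mir214, Mir140 and the Mir199 genes. Their mature sequences from RefSeq (GRCm38.p6) are shown because the Mir199 entries bear on how far their counts can be read. Capitals mark the seed, bases 2 to 8.
miR-126a-3p: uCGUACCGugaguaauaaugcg
miR-214-3p: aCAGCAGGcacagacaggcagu
miR-140-3p: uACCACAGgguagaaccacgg
miR-199a-3p: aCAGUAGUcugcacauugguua
miR-199b-3p: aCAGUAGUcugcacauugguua
The 3p entries of the 3 genes Mir199a-1, Mir199a-2 and Mir199b are 1 and the same sequence, and reads that align to several places were assigned to no gene. Of these companions, Mir126a, Mir214 and Mir140 shared no run of 20 bases with another annotated hairpin, while each Mir199 gene shared one with 2 others. Gene counts add both arms of a hairpin, so the values given here are not for a single arm.

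By counts assigned to a single gene, Mir143 was among the abundant microRNAs of the midbrain and Mir145a was not. Reads that aligned to several places, 33.4% in each library, are left out, so genes with near-identical copies can rank too low. Mir143 had 31845 counts in replicate 2 and 38350 in replicate 1. Per 1000000 own-strand counts assigned to genes (CPM), this was 11351 CPM in replicate 2 (95% Wilson interval 11228 to 11476) and 8284 CPM in replicate 1 (8202 to 8367). The gene thus took 1.14% of assigned counts in replicate 2 and 0.828% in replicate 1.

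Mir145a had 413 counts in replicate 2 and 613 in replicate 1. This was 147 CPM in replicate 2 (95% Wilson interval 134 to 162) and 132 CPM in replicate 1 (122 to 143). Its intervals overlapped between the libraries, whereas those of Mir143 were far apart. Intervals, SEs and floors hold counting error alone and treat each read as an independent count. If PCR copies of a molecule were counted as separate reads, they are too narrow even for that.

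Averaged over the libraries, Mir143 stood at 9818 ± 2169 CPM and Mir145a at 139.8 ± 10.5 CPM (SD, n = 2). By mean CPM, Mir143 ranked 25 and Mir145a 196 among the 746 genes with at least 1 count. Per annotated hairpin base, Mir143 had 156 ± 34.4 CPM per base and ranked 17, while Mir145a had 2.00 ± 0.15 CPM per base and ranked 184 of 744. Within replicate 2 the CPM ranks were 21 for Mir143 and 193 for Mir145a, and within replicate 1 they were 28 and 199.

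**Figure D2:**
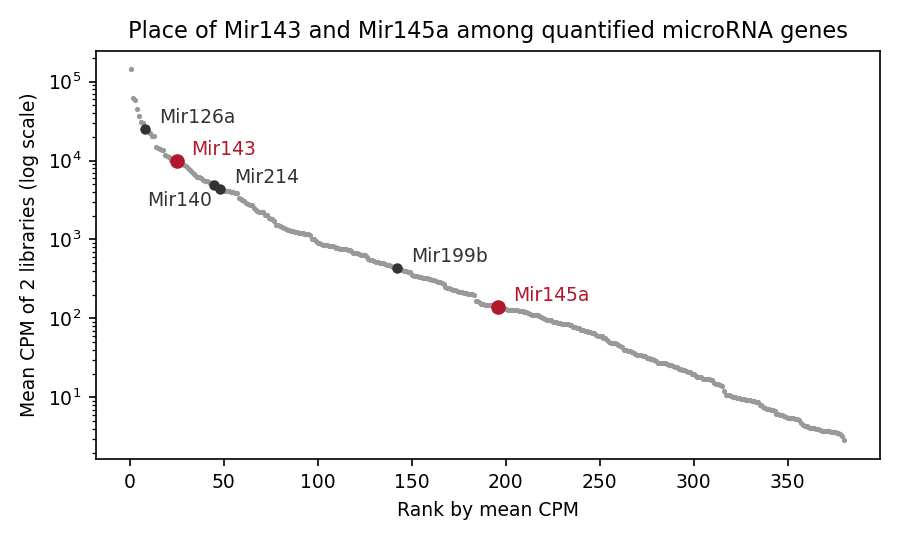
Mean CPM of the 2 libraries on a log axis against rank, for the 380 genes with at least 10 counts in both libraries. Red points are Mir143 at rank 25 and Mir145a at rank 196, and black points are endothelial Mir126a and mesenchymal Mir140, Mir214 and Mir199b.

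The genes next to Mir143 in mean CPM could not be separated from it by the spread of the libraries. They were Mir23b (10235 ± 3108 CPM), Mir423 (9956 ± 726 CPM) and Mir181d (9861 ± 1590 CPM) above it, and Mir130b (9777 ± 616 CPM), Mir744 (9664 ± 755 CPM) and Mir135b (9027 ± 696 CPM) below it (SD, n = 2). Every one of these 6 genes had a range that overlapped that of Mir143. Per hairpin base, the same 6 genes ran from 91.3 CPM per base for Mir423 to 138.3 for Mir23b, all below the mean of Mir143. The annotated hairpin of Mir143, 63 bases, is shorter than theirs (72 to 109 bases), which raises it on this scale. The means of Mir23b and Mir181d (137.0) still lay within the SD of Mir143 on this scale (156 ± 34.4 CPM per base). Around Mir145a stood Mir10a (146 ± 64.3 CPM), Mir19a (143 ± 15.8 CPM), Mir410 (142 ± 17.1 CPM), Mir673 (139 ± 16.6 CPM), Mir216b (137 ± 16.0 CPM) and Mir5099 (133 ± 12.5 CPM), and each of their ranges overlapped that of Mir145a.

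Mir145a has a near copy, Mir145b, on the minus strand of chromosome 18 from 69022199 to 69022273. Mir145b had 0 counts in replicate 2 and 0 in replicate 1, which allows up to 1.07 CPM in replicate 2 and 0.648 CPM in replicate 1 (3 counts). The longest run of bases shared by the hairpins of Mir145a and Mir145b was 17, and for Mir143 the longest run shared with any other of 2201 annotated hairpins was 11. Neither member therefore met the 20-base rule for shared sequence. The count of Mir145a still omits any read that aligned to several places, and the number of such reads was not measured. Neither member had a read on the opposite strand, with 0 in replicate 2 and 0 in replicate 1.

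Within the pair, Mir143 far outnumbered Mir145a in both libraries. Per annotated hairpin base, the ratio of Mir143 to Mir145a was 85.7 in replicate 2 and 69.5 in replicate 1, with a mean of 77.6 ± 11.4 (SD, n = 2). As plain counts, the ratio was 77.1 in replicate 2 (exact 95% interval 70.0 to 85.2) and 62.6 in replicate 1 (57.8 to 67.9). Mir143 made up 98.7% of the pair's counts in replicate 2 (Clopper-Pearson interval 98.6 to 98.8%) and 98.4% in replicate 1 (98.3 to 98.5%). The summed level of the pair, 9957 ± 2179 CPM (SD, n = 2), was thus almost wholly that of Mir143.

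The ratio was higher in replicate 2 than in replicate 1 beyond counting noise. On the log2 scale it was 6.27 ± 0.07 in replicate 2 and 5.97 ± 0.06 in replicate 1 (counting SE), a difference of 0.30 ± 0.09. With the counts of both genes in both libraries set in Fisher's exact test (two-sided), and Benjamini-Hochberg adjustment over 110 pairs of adjacent same-strand genes within 10 kb, the adjusted p was 0.00265. The test was passed by 52.7% of those pairs, so such a difference is common between these libraries. Of the 110 pairs, 49 with this one included had a difference at least as large, and the median absolute difference was 0.26.

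Close neighbours often differed widely in assigned counts. Over the 110 pairs, which share genes and are not independent, the median gap between neighbours was 7.78-fold in counts per hairpin base. Mir143 and Mir145a ranked 23 of the 110 by the size of their gap in counts and 20 when counts were taken per hairpin base. The upstream gene was the higher in both libraries in 55 pairs, as here, and the downstream gene in 51. In 42 of the 110 pairs at least 1 hairpin shared 20 bases with a hairpin elsewhere, so that its unassigned reads are missing from the gap. Of the 22 pairs with a larger gap in counts than Mir143 and Mir145a, the lower gene was such a one in 13. Among the 68 pairs without shared sequence, the median gap was 7.19-fold per hairpin base, and Mir143 and Mir145a ranked 8.

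The pairs next to Mir143 and Mir145a in the size of the gap came from several other clusters. Per hairpin base, Mir23a exceeded Mir27a, which is cut from the same transcript, by 80.6-fold, with 21414 against 233 counts in replicate 2 and 21736 against 414 in replicate 1. On the same scale Mir669l exceeded Mir297a-2 by 65.6-fold, Mir18 exceeded Mir19a by 52.5-fold, and Mir669o exceeded Mir669h by 78.3-fold. Mir143 exceeded Mir145a by 77.2-fold (all as geometric means of the libraries). Mir297a-2 had only 16 counts in replicate 2 and 31 in replicate 1, and Mir669h 31 and 37 in the same libraries. Any reads of these pairs that aligned to several places are missing from the gaps. The mesenchymal pair Mir199a-2 and Mir214, 5444 bases apart, had an 89.2-fold gap per hairpin base in the other direction, with the downstream Mir214 higher. That gap sets a gene with a shared mature sequence beside one without, so reads of Mir199a-2 that aligned to several places are missing from it.

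**Figure D3:**
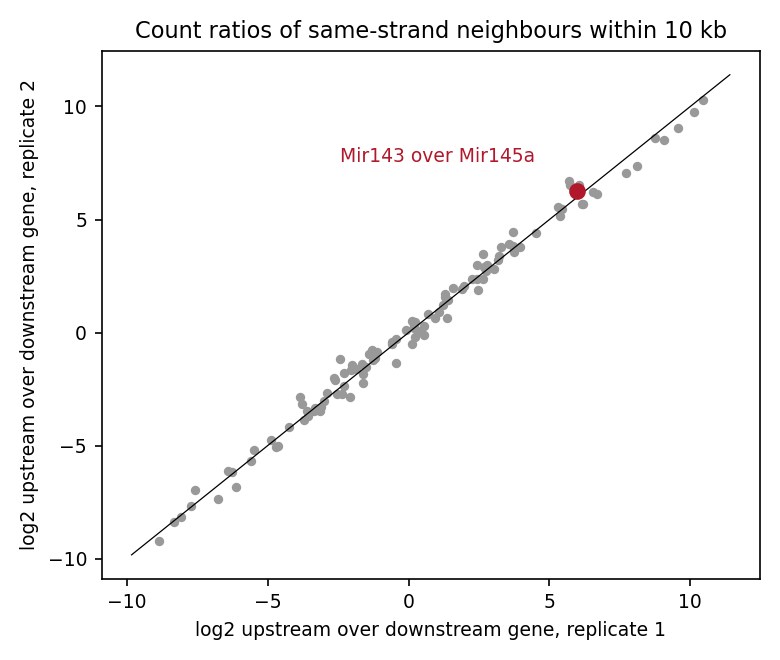
Log2 ratio of the upstream over the downstream gene in counts, replicate 2 on the vertical and replicate 1 on the horizontal axis, for 110 pairs of adjacent same-strand genes within 10 kb. The line marks equal ratios, and the red point is Mir143 over Mir145a, at 6.27 in replicate 2 and 5.97 in replicate 1.

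Between the libraries, Mir143 was higher in replicate 2 and Mir145a was not called. The log2 ratio of replicate 2 over replicate 1 was 0.45 ± 0.01 for Mir143 (counting SE), or 1.37-fold, and the log10 of its adjusted p by the two-sided Fisher's exact test over all 380 quantified genes was -373. For Mir145a the log2 ratio was 0.15 ± 0.09, with a 95% counting interval of -0.03 to 0.33 and an adjusted p of 0.162 by the same exact test. This test sets the difference between 2 libraries against counting noise and compares no conditions. It called 54.2% of the quantified genes in either direction and 27.1% as higher in replicate 2. The median absolute log2 ratio of the quantified genes was 0.24. A ratio at least as far from 0 as that of Mir143 was found in 23.2% of them, and one as far as that of Mir145a in 67.4%.

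A log2 ratio near the mean of the members, 0.30, was shared by genes of quite different level. The 5 nearest among 218 other genes of at least 100 CPM were Mir672 (0.31), Mirlet7g (0.28), Mir322 (0.27), Mir28a (0.27) and Mirlet7f-2 (0.27). In all, 20 of these 218 genes lay within 0.1 of the mean of the members.

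Endothelial Mir126a, which lies in Egfl7 and is known for its role in vessel integrity, was the more abundant vessel microRNA. It had 73623 counts in replicate 2 and 108485 in replicate 1, or 26242 CPM in replicate 2 and 23434 CPM in replicate 1. In CPM, Mir143 stood at 0.43 of Mir126a in replicate 2 and 0.35 in replicate 1. Per hairpin base, Mir126a exceeded Mir143 by 2.00-fold in replicate 2 and 2.44-fold in replicate 1. It exceeded Mir145a by 171-fold in replicate 2 and 170-fold in replicate 1. Its log2 ratio between the libraries was 0.16 ± 0.01, near that of Mir145a and below that of Mir143. The log2 ratio of Mir143 minus that of Mir126a was 0.29 ± 0.01, and that of Mir145a minus Mir126a was -0.01 ± 0.09 (counting SE, no test).

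Among the mesenchymal microRNAs, Mir140, known from cartilage, stayed closest to Mir143. Mir140 had 5626 CPM in replicate 2 and 4089 CPM in replicate 1. Per hairpin base, Mir143 was 2.24-fold above Mir140 in replicate 2 and 2.25-fold in replicate 1. In CPM it was 2.02-fold above in replicate 2 and 2.03-fold in replicate 1. The log2 ratio of Mir143 minus that of Mir140 was -0.01 ± 0.02 (counting SE, no test), while that of Mir145a minus Mir140 was -0.31 ± 0.09.

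Mir214, whose gene lies in Dnm3os, had 5888 CPM in replicate 2 and 2811 CPM in replicate 1. Per hairpin base, Mir143 was 3.37-fold above Mir214 in replicate 2 and 5.15-fold in replicate 1. In CPM it was 1.93-fold above in replicate 2 and 2.95-fold in replicate 1, since the annotated hairpin of Mir214 is 110 bases long and that of Mir143 63. Mir214 thus differed between the libraries by more than either member, with a log2 ratio of 1.07 ± 0.02. Mir199b had 520 CPM in replicate 2 and 348 CPM in replicate 1. Mir199a-2 had 52.0 CPM in replicate 2 and 40.0 CPM in replicate 1, and Mir199a-1 had 18 counts in replicate 2 and 11 in replicate 1. The Mir199 counts omit reads of their common 3p sequence that aligned to several places.

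**Figure D4:**
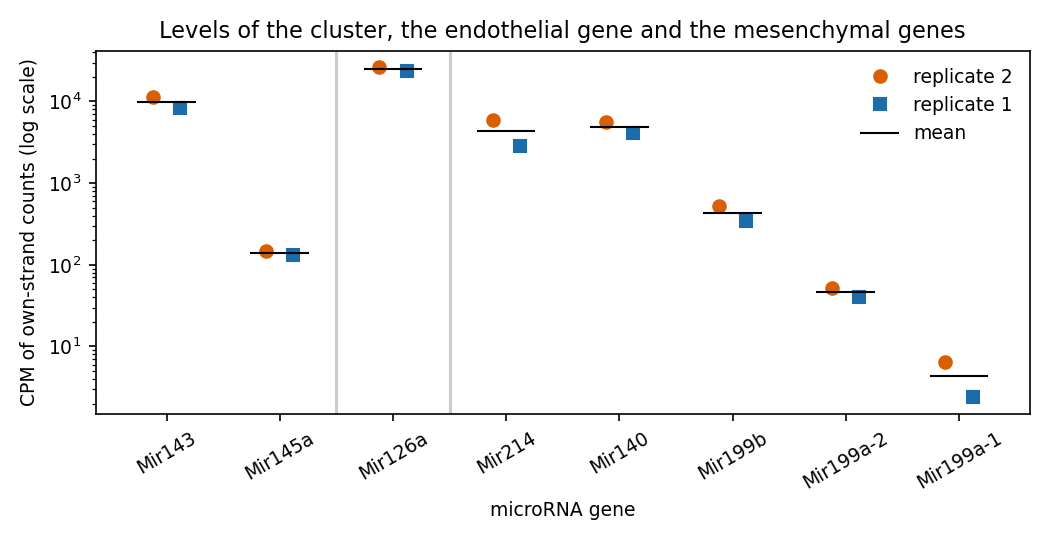
CPM of own-strand counts on a log axis in replicate 2 (circles) and replicate 1 (squares), with the mean as a line, for Mir143 and Mir145a, endothelial Mir126a and the 5 mesenchymal genes. All 8 genes had the higher value in replicate 2, and the points of Mir145a and Mir126a lie closest together.

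The mesenchymal and perivascular fibroblast list moved in the direction of Mir143. All 5 of its genes were quantified and called higher in replicate 2, beside 27.1% of all quantified genes, with a median log2 ratio of 0.58 against 0.04 over all quantified genes. These 5 are not independent, because the 3 Mir199 genes share a 3p sequence and Mir199a-2 lies 5444 bases from Mir214. Mir199a-1 had 18 counts in replicate 2 and 11 in replicate 1, near the filter of 10 counts. The summed level of the list was 12093 CPM in replicate 2 and 7291 CPM in replicate 1. The endothelial list had 1 of 2 genes in the table, Mir126a, which was called higher. These lists were drawn up with earlier results of the same libraries known, so their counts are a description.

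Genes of other cell types and regions also differed between the libraries, and their counts stand beside 27.1% of all quantified genes called higher in replicate 2 and 27.1% called lower. Of 4 quantified Hox cluster genes, which mark tissue caudal to the midbrain, 4 were called higher in replicate 2 (median 0.81), led by Mir10a, and the list summed to 419 CPM in replicate 2 and 225 CPM in replicate 1. In that list Mir196a-1 had 0 assigned counts in both libraries, and any of its reads that aligned to several places are left out. Of 7 epithelial genes, 6 passed the test as higher and 1 did not pass (median 0.60), with 3549 CPM in replicate 2 and 2764 CPM in replicate 1, led by Mir203. Of 4 quantified leukocyte genes, 3 were called higher, led by Mir223, and Mir155 lower (median 0.66), with 769 CPM in replicate 2 and 607 CPM in replicate 1.

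All 5 choroid plexus genes were called lower in replicate 2 (median -1.76), beside 27.1% of all quantified genes, with 832 CPM in replicate 2 and 2938 CPM in replicate 1, led by Mir449a. The erythroid list had 1 gene called higher, 1 lower and 1 not called, and summed to 271 CPM in replicate 2 and 413 CPM in replicate 1. Its most abundant gene, Mir451a, was the one called lower. Of 7 quantified neural genes, 2 were called higher, 3 lower and 2 not called (median -0.06), beside the 54.2% of all quantified genes called in either direction, with 7507 CPM in replicate 2 and 8333 CPM in replicate 1, led by Mir137. All list sums omit reads that aligned to several places, and how many were lost for the neural genes was not measured. The part of the cell makeup in the difference of Mir143 was not tested.

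Striated muscle microRNAs, another contractile cell type, were scarce. The list summed to 67.4 CPM in replicate 2 and 59.2 CPM in replicate 1, led by Mir208b. Of its 5 quantified genes, 0 were called between the libraries by Fisher's exact test, beside 54.2% of all quantified genes. An unadjusted p under 0.05 was found for 0 of them, beside 217 of all 380. Their median log2 ratio was 0.34, against 0.04 over all quantified genes. They had only 12 to 111 counts per library, so the test could miss differences of that size. Mir1a-1, Mir133a-1 and Mir133a-2 had 0 assigned counts in both libraries, and they are known to have near-identical copies whose reads would be left unassigned. Beside them, the counts of Mir143 and Mir145a summed to 11498 CPM in replicate 2 and 8417 CPM in replicate 1.

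**Figure D5:**
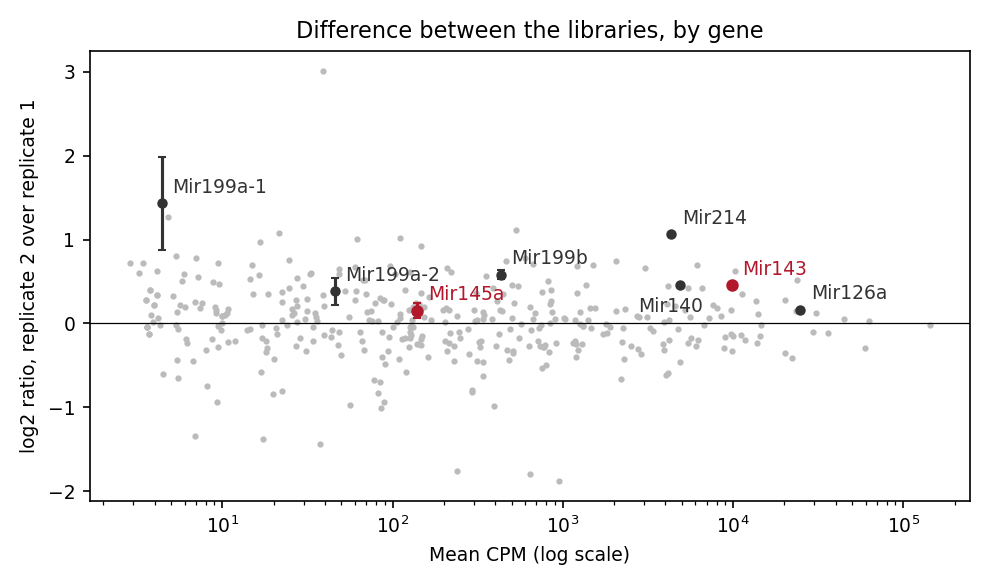
Log2 ratio of replicate 2 over replicate 1 against mean CPM on a log axis for the 380 quantified genes (grey), with Mir143 and Mir145a in red and the endothelial and mesenchymal genes in black. Bars are counting SE, drawn where larger than the point, and Mir143 (0.45) lies level with Mir140 (0.46) while Mir145a (0.15) lies level with Mir126a (0.16).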

How the data were processed

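Per the deposited read-me files, raw read counts per microRNA gene were derived by the authors from mm10 alignments and annotation release M4; which aligner and counter were used is not given in the sources used here. Each table has counts for either strand, the opposite strand and the gene's own strand. Values here are own-strand counts, with 2805487 assigned counts in replicate 2 and 4629302 in replicate 1, where a floor of 3 counts is 1.07 and 0.648 CPM. Rows that name no gene held 58.2% of reads in replicate 2 and 56.9% in replicate 1, multimapping reads 33.4% in each, and stayed out of totals and tests. Nothing in the labels says how the pools were drawn beyond their embryo numbers, so p-values measure the difference between these libraries, which may be technical.

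Symbols and positions came from GENCODE M21 (GRCm38, the assembly of mm10), matched by Ensembl identifier without version for 1894 of 1973 genes. The table carries version 2 of Mir143 and version 1 of Mir145a, and M21 versions 3 and 2. Genes with at least 10 counts in both libraries (380) were compared by two-sided Fisher's exact tests against the rest of the assigned counts. P-values were adjusted by Benjamini-Hochberg with a threshold of 0.05 (scipy 1.17.1). The tests were tried on simulated data with counting noise alone, so that trial does not cover other variation between libraries. With 1 group, no edgeR quasi-likelihood test could be fitted. Neighbour pairs were adjacent quantified genes on 1 strand within 10 kb. Alternatives used edgeR 4.0.16 (TMM) and DESeq2 1.42.0 size factors with exact binomial tests, other filters, totals, strands and distances.

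The members, lists and alternatives were chosen with earlier results of these data known. The rule for named genes takes the members, their 3 neighbours in mean CPM on each side, the 5 genes nearest in log2 ratio, the endothelial and mesenchymal lists, the most abundant gene of each other list and the 4 pairs nearest in gap. Mir155, Mir1a-1, Mir133a-1, Mir133a-2, Mir196a-1, Mir145b and the pair Mir199a-2 and Mir214 were added after their values were seen, as were the differences of log2 ratios between members and companions. The part of the rule on shared seeds was not applied.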

Additional observations from a re-analysis of the deposited data

Results flagged for a closer look

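Reads on the opposite strand stayed outside the own-strand measurement, and 3 listed genes had more of them in both libraries than a count of 0 allows, which is 3 counts. Mir203 had 45 in replicate 2 and 90 in replicate 1. Mir124a-3 had 12 in replicate 2 and 19 in replicate 1, beside 15 and 25 own-strand counts in the same libraries. Mir126a had 7 in replicate 2 and 12 in replicate 1. Mir143 and Mir145a had 0 in both.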

How the results depend on the processing

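No paired analysis was possible because the series has 1 group, and leaving out a library leaves no comparison between libraries. Of 45 recomputed values, 41 were classed as unchanged. For levels and ratios this meant the same direction and side of the threshold, or a move of less than the SD. The number of genes called, also classed as unchanged, has no SD and ran from 199 to 214 against 206. Part of the unchanged result was fixed in advance. Count filters and pair distances leave a log2 ratio itself unchanged. With 2 libraries, leaving out 1 always moves a mean by less than the SD. With all reads as denominator, the mean of Mir143 fell to 4155 and that of Mir145a to 59.3 per 1000000 reads, and without the most abundant gene in the total Mir145a stood at 163 CPM. Over 6 alternatives the log2 ratio ran from 0.42 to 0.48 for Mir143, always called, and from 0.12 to 0.18 for Mir145a (adjusted p 0.0894 to 0.309 by exact tests), never called. With 1 library left out, the ratio of Mir143 to Mir145a ran from 62.6 to 77.1 in counts. In an alternative chosen after seeing the data, pairs without sequence shared elsewhere gave a median gap of 7.19-fold per hairpin base, against 7.78-fold over all pairs. Depth limits Mir145a, at 413 counts in replicate 2.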
